A study of Mus musculus with 6 samples.

Results

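The genes described here are 10 chaperones, disulfide isomerases and an oxidase of the endoplasmic reticulum (ER), namely Hspa5, Hsp90b1, Hyou1, Calr, Canx, P4hb, Pdia3, Pdia4, Pdia6 and Ero1a. They were taken by name from the count tables of 6 mouse colon libraries, where all 10 were present among 24517 genes listed, and all 10 passed the filter on low counts that left 16347 genes for testing. Of the 6 libraries, 3 came from Nsd2fl/fl mice (NSD2fl/fl in the labels), which carry loxP-flanked alleles of the histone H3 lysine 36 methyltransferase gene Nsd2 without its deletion, and 3 from Nsd2ΔIE mice (NSD2∆IE in the labels), in which the gene was removed from the intestinal epithelium by Cre recombinase under the Villin promoter. Both groups were on a C57BL/6J background per the methods and were fed HFCD, a diet rich in fat and cholesterol, which the labels put at 16 weeks while the methods give a longer time. The labels give neither age nor sex, and the methods describe male littermates. Whole colon was sequenced, so deletion was confined by design to 1 of the tissue's compartments, and fewer cells of a type and less RNA per cell cannot be told apart. The question was whether the level of the ER folding machinery in the colon differed with the deletion.

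Proteins that are secreted or inserted into membranes fold in the lumen of the ER. There Hsp70 and Hsp90 class chaperones hold unfolded chains, the lectin chaperones calreticulin and calnexin retain glycoproteins until they are folded, and disulfide isomerases form and rearrange disulfide bonds with oxidizing power supplied by ERO1. When unfolded chains build up, the sensors IRE1, ATF6 and PERK start the unfolded protein response, which raises the transcription of many of these genes, and secretory cells of the colon such as goblet cells and plasma cells carry a large ER.

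Totals of 38041832 to 38604680 counts per library gave every member at least 1301 counts in each library (the lowest was Ero1a). The targeted gene, Nsd2, was counted 1840, 2091 and 2455 times in Nsd2fl/fl and 972, 914 and 1139 times in Nsd2ΔIE. Its log2 fold change was −1.23 (SE 0.159), at an adjusted p of 0.302 by the quasi-likelihood test of edgeR and of 3.88e-07 by DESeq2. In the libraries labelled Nsd2fl/fl, Xist had 0 to 4 counts and the Y-linked genes summed to 5058 to 6110 counts, whereas those labelled Nsd2ΔIE had 21217 to 24234 counts of Xist and 0 or 1 of the Y-linked genes. This goes against littermates of a single sex, and genotype and sex cannot be told apart in any difference given below. The first principal component took 51% of the variance and set Nsd2fl/fl replicates 1 and 3 and Nsd2ΔIE replicate 1 apart from the other 3 libraries, and the labels name no batch. No pair of libraries agreed within sampling noise (chi-square per degree of freedom of at least 35.5), and the labels do not state that the libraries came from separate animals, so p-values measure the spread between these libraries.

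The ER stress element (ERSE), at which the transcription factors NF-Y and ATF6 are known to bind, joins the letters CCAAT and CCACG with a spacer of 9 bases. It was searched, with any letters in the spacer, on both strands of the 250 bases before each RefSeq gene start (GRCm38.p6). Promoters were found for 9 of the 10 members, all but Hyou1, and 5 of these 9 held the element, against 35 of 27025 genes with a promoter (0.13%) and 3 of 59 other ER folding genes (Dnajc3, Creld2 and Ero1b). The 5 promoters are printed because they show what these members share in sequence. This share is a description and was not tested. Each is read 5′ to 3′ on the strand of its gene and ends just before the RefSeq start, and capitals mark the CCAAT and CCACG parts of the element, or CGTGG and ATTGG where it lies on the opposite strand.
Hspa5, chr2:34771840-34772089 (+): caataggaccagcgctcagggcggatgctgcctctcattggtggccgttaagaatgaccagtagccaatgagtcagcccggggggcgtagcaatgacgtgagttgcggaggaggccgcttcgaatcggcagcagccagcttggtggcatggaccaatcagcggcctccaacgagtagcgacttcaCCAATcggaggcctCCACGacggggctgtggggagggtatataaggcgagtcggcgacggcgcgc
Hsp90b1, chr10:86705445-86705694 (−): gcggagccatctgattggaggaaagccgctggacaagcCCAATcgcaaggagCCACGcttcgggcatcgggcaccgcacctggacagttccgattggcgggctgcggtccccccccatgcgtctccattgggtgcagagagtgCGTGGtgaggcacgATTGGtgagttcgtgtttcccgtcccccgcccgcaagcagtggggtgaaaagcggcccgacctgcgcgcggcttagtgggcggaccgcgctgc
Calr, chr8:84846932-84847181 (−): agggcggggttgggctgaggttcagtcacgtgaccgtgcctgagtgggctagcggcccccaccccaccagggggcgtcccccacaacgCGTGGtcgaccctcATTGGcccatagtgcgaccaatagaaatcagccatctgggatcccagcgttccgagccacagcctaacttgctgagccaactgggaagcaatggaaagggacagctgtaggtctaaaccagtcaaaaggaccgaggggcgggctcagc
Canx, chr11:50325674-50325923 (−): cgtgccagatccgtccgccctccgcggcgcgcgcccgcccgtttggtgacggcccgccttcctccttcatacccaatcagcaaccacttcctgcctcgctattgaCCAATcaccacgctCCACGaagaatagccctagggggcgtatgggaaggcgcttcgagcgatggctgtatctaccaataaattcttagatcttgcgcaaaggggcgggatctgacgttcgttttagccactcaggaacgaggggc
Pdia6, chr12:17266339-17266588 (+): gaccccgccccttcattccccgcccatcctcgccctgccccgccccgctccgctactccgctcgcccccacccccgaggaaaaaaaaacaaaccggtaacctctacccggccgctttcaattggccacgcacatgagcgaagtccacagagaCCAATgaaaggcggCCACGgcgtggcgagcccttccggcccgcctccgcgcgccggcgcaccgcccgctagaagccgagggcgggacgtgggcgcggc
In Hspa5 the element began 65 bases before the gene start, the nearest of these 5 promoters. Hsp90b1 held 2 elements, which began 212 and 107 bases before the start and lay on opposite strands. In Pdia6, Canx and Calr it began 98, 145 and 162 bases before the start, on the opposite strand in Calr. No match was found in the windows of P4hb, Pdia3, Pdia4 and Ero1a, which says only that these exact letters are not there. A related element (ERSE-II, which is ATTGG, 1 base of any kind and CCACG; 0.037% of genes) and an XBP1 element (UPRE, TGACGTGG; 0.603% of genes) had no match in any of the 9 member promoters, so no ERSE there overlapped them. The annotation of GENCODE M21 starts Hspa5, Hsp90b1, Calr and Pdia6 inside these windows, so their last bases lie in its first exons. In Hspa5 this includes the element itself, and its distance to the gene start holds for the RefSeq start only. The windows of Pdia3 and Ero1a, which had no match, also contain the GENCODE start, so less sequence before that start was searched.

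**Figure D1:**
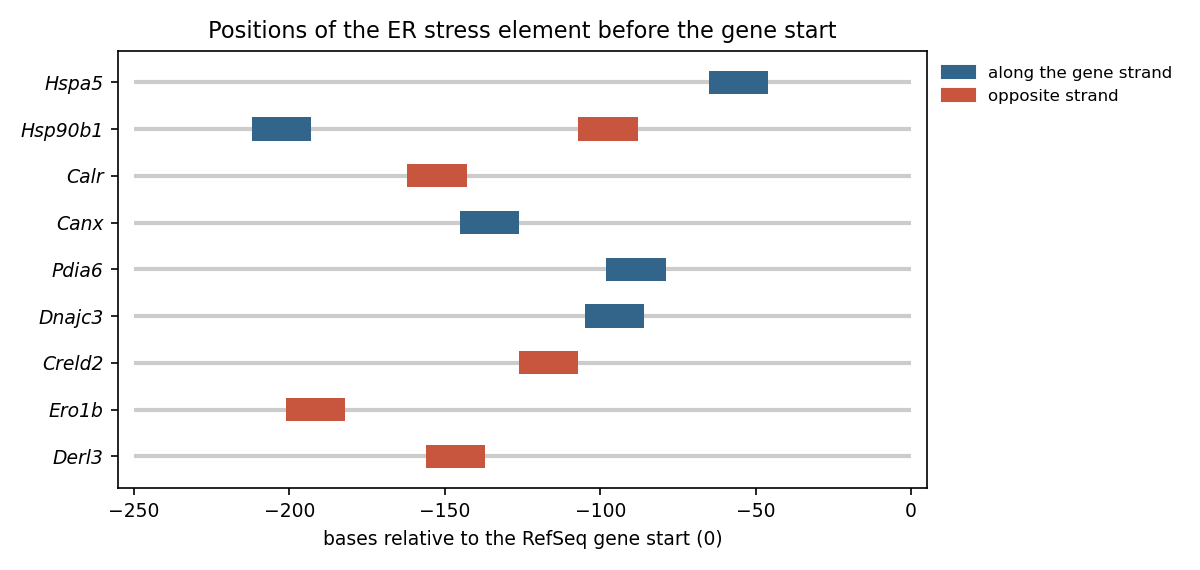
Position of each ER stress element (coloured block) in the 250 bases before the RefSeq gene start, in bases on the x axis, for the members and other listed genes that hold one; blue blocks run along the gene strand and red blocks on the opposite strand. Hspa5 has the element closest to its start, 46 to 65 bases before it, and Hsp90b1 is the only one of these genes with 2.

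Across the 10 genes, every fitted value was lower in Nsd2ΔIE than in Nsd2fl/fl, with log2 fold changes from −0.79 (Hspa5) to −0.23 (P4hb) and a median of −0.51. Over all genes tested, 56.3% were fitted below 0 and the median was −0.04. None of the 10 passed an adjusted p of 0.05 in edgeR, where 0.0306% of all genes did, nor in limma-voom (also 0.0306%) or DESeq2 (2.79%). At an unadjusted p under 0.05, 1 member passed (11.1% of all genes did), and the same gene, Ero1a, was the 1 member that passed the threshold of the study in the lower direction (2.21% of all genes did). That threshold takes genes at an unadjusted p under 0.05 whose log2 fold change exceeds 0.32 in size. The control libraries spread widely: Nsd2fl/fl replicate 3 had the highest level of all 6 libraries for 10 of 10 members, against 23.9% of all genes tested, and Nsd2fl/fl replicate 1 lay within or below the Nsd2ΔIE range for 9 of 10. Levels are given below as CPM, counts scaled to the library total with TMM factors, for replicates 1, 2 and 3 of each group in that order.

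**Figure D2:**
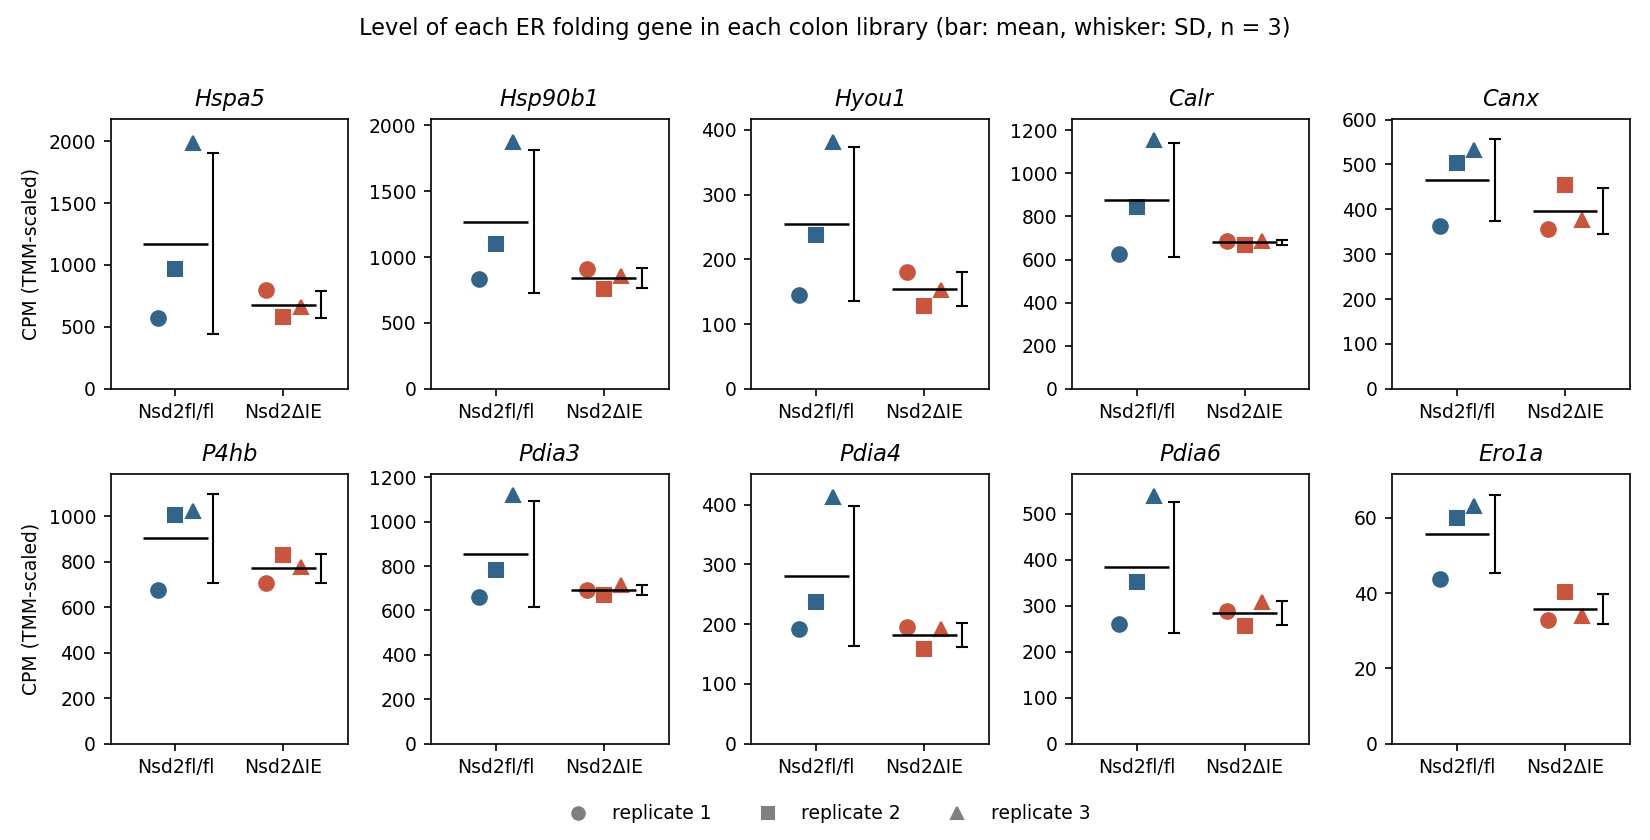
Level of each of the 10 genes (CPM, y axis from 0) in the 3 Nsd2fl/fl (blue) and 3 Nsd2ΔIE (red) libraries, with symbols for the replicate number, a bar at the mean and a whisker of 1 SD (n = 3). The triangle of Nsd2fl/fl replicate 3 is the highest point in all 10 panels, and Ero1a is the only gene whose 3 Nsd2ΔIE points lie below all 3 Nsd2fl/fl points.

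Hspa5 (chr2:34771970-34777547) encodes BiP, the Hsp70 of the ER lumen, which binds unfolded chains and holds the stress sensors inactive. Its level was 569, 968 and 1981 CPM in the Nsd2fl/fl libraries and 795, 579 and 658 CPM in the Nsd2ΔIE libraries. All 3 Nsd2ΔIE libraries lay above the lowest control and below the middle one, and the highest control was 3.48 times the lowest. The group means were 1172 ± 728 and 677 ± 109.6 CPM (SD, n = 3), the log2 fold change was −0.79 (SE 0.437) and the adjusted p of edgeR was 0.562, so the difference did not exceed the spread between libraries. Among the members this gene had the largest spread in the controls, with an SD of log2 CPM of 0.903 against 0.231 in Nsd2ΔIE.

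Hsp90b1 (chr10:86690209-86705509), the gene of the ER Hsp90 GRP94, which folds Toll-like receptors, integrins and other client proteins, showed the same order of libraries in the controls. The controls had 832, 1097 and 1878 CPM, and the Nsd2ΔIE libraries 907, 761 and 857 CPM. Here too 2 of the 3 Nsd2ΔIE libraries were above the lowest control, and the log2 fold change was −0.59 (SE 0.309; adjusted p of edgeR, 0.54). The annotation places a pseudogene, 1810014B01Rik, on the opposite strand over 415 of the exonic bases of Hsp90b1 (10.3%), and since the use of strand in counting is not stated, a share of these counts could belong to it.

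Hyou1 (chr9:44379490-44392369) encodes GRP170, a large Hsp70-related protein that exchanges nucleotide on BiP. It had 145, 238 and 381 CPM in Nsd2fl/fl and 179.8, 127 and 153 CPM in Nsd2ΔIE, with 2 of 3 Nsd2ΔIE libraries above the lowest control. At −0.73 on the log2 scale (SE 0.341), the difference had an unadjusted p of 0.0702, or 0.49 after adjustment in edgeR.

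The lectin chaperones differed less. Calr (chr8:84841850-84846934), for the soluble calreticulin, had 628, 842 and 1156 CPM in the controls and 687, 666 and 688 CPM in Nsd2ΔIE. The 3 Nsd2ΔIE libraries lay within 1.03-fold of each other, while the controls spanned 1.84-fold around them, and the log2 fold change was −0.36 (SE 0.235; adjusted p of edgeR, 0.619). Canx (chr11:50293961-50325673), for the membrane-bound calnexin, had 362, 502 and 533 CPM in the controls and 357, 454 and 376 CPM in Nsd2ΔIE, so that the highest Nsd2ΔIE library was between the lowest and the middle control. Its log2 fold change was −0.24 (SE 0.193; adjusted p of edgeR, 0.688).

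The 4 protein disulfide isomerases spread to different degrees. Pdia4 (chr6:47796141-47813430), an isomerase with several thioredoxin domains, had 192, 236 and 414 CPM in the controls and 195, 158 and 191 CPM in Nsd2ΔIE. Only Nsd2ΔIE replicate 1 was above the lowest control, and the log2 fold change was −0.63 (SE 0.289; unadjusted p 0.0672, adjusted p of edgeR 0.486). Pdia6 (chr12:17266545-17284770), which also limits the activity of IRE1, had 261, 352 and 539.5 CPM against 289, 256 and 307 CPM (log2 fold change −0.44, SE 0.266; adjusted p of edgeR, 0.6). Pdia3 (chr2:121413775-121438687) encodes ERp57, the isomerase that works with calreticulin and calnexin. It had 660.1, 784 and 1122 CPM in the controls and 692, 670.0 and 714 CPM in Nsd2ΔIE (log2 fold change −0.31, SE 0.22; adjusted p of edgeR, 0.65). P4hb (chr11:120560298-120573253), the founding disulfide isomerase and the beta subunit of collagen prolyl 4-hydroxylase, had 676, 1008 and 1025 CPM against 706, 832 and 778 CPM. For both Pdia3 and P4hb all 3 Nsd2ΔIE libraries lay above the lowest control, and P4hb had the smallest fitted difference of the 10, −0.23 (SE 0.205; adjusted p of edgeR, 0.717). The small exonic overlaps of Pdia3, Pdia4 and Pdia6 with neighbouring genes covered at most 1.34% of their exonic bases.

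Ero1a (chr14:45283087-45318771, named Ero1l in the annotation) encodes the oxidase that passes electrons from disulfide isomerases to oxygen. It was the only member whose groups did not overlap, with 43.8, 60.0 and 63.0 CPM in Nsd2fl/fl and 32.8, 40.2 and 34.0 CPM in Nsd2ΔIE; 7.28% of all genes tested were lower without overlap. The group means were 55.6 ± 10.3 and 35.7 ± 3.98 CPM (SD, n = 3), and the fitted difference was −0.64 on the log2 scale (SE 0.167). Its p in edgeR was 0.00687 unadjusted and 0.306 adjusted. Its direction and an unadjusted p under 0.05 held in all 16 alternative analyses, with log2 fold changes of −0.79 to −0.45, while its adjusted p ranged from 0.0563 (DESeq2) to 0.99 and in none of them passed 0.05. Of the 10 genes it also had the smallest spread among the controls, with an SD of log2 CPM of 0.285 and a highest control 1.44 times the lowest.

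Per length, in the deposited FPKM, Hsp90b1, Calr and Hspa5 had the highest levels in Nsd2fl/fl, 437 ± 176, 428 ± 117 and 424 ± 254 (SD, n = 3), and did not differ from each other beyond their spread. Pdia3 (308 ± 78.0) and P4hb (300.1 ± 52.9) followed and were likewise within their spread of each other, then Pdia6 (169.9 ± 58.4), Canx (103 ± 16.1), Pdia4 (100.4 ± 39.6) and Hyou1 (50.5 ± 22.3). Ero1a was lowest, at 11.98 ± 1.73 FPKM, and stood apart from the gene above it. In Nsd2ΔIE the FPKM order was led by Calr (366 ± 15.4), and Hspa5 (271 ± 42.8) was below Hsp90b1 (319 ± 31.0), P4hb (282 ± 24.5) and Pdia3 (274 ± 16.3), of which P4hb, Pdia3 and Hspa5 were within their spread of each other. Ero1a was again the lowest, at 8.44 ± 0.862 FPKM.

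The spread was unequal between the groups. The SD of log2 CPM ran from 0.285 to 0.903 over the members in Nsd2fl/fl and from 0.0267 to 0.25 in Nsd2ΔIE, and it was larger in Nsd2fl/fl for 10 of 10 members and for 73.8% of all genes tested. Added over the 10 genes, the level was 4368, 6088 and 9092 CPM in the controls and 4842, 4542 and 4757 CPM in Nsd2ΔIE, so the lowest control was below all 3 Nsd2ΔIE libraries. The log2 ratio of Nsd2fl/fl replicate 3 to the mean of the other 2 controls was 1.42 for Hspa5, 1.03 for Hyou1, 0.975 for Hsp90b1 and 0.958 for Pdia4, followed by 0.833 for Pdia6, 0.669 for Calr and 0.642 for Pdia3. It was smallest for Canx (0.323), P4hb (0.312) and Ero1a (0.297). The median over the members was 0.751, and over all genes it was 0.02, with 9 in 10 genes between −0.98 and 0.91.

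The comparison between genotypes rested on which control libraries were in it. Without Nsd2fl/fl replicate 1, 9 members were lower past the study's threshold (4.48% of all genes were), all but Pdia3, the groups did not overlap for 10 of 10 (17.1% of all genes, lower), and the log2 fold change of Hspa5 was −1.12. Without Nsd2fl/fl replicate 3, 1 member passed (2.68% of all genes did), Ero1a at −0.53, and the median over the members moved to −0.15, with Hspa5 at −0.17. None of the 10 passed an adjusted p of 0.05 in either case (0.018% of all genes did in each). With all libraries, DESeq2 put 3 members past the study's threshold, Hyou1, Pdia4 and Ero1a (2.64% of all genes), as did the fit with no filter on low counts (2.48% of all genes). Within the libraries set apart by the first principal component, 1 or 2 libraries a group, differences of mean log2 CPM were below 0 for all 10 members in both sets. Examples are −0.42 and −0.65 for Hspa5 and −0.68 and −0.70 for Ero1a. The share over all genes was not taken. In the first set, Hspa5 had 795 CPM in Nsd2ΔIE replicate 1 against 569 and 1981 CPM in Nsd2fl/fl replicates 1 and 3. Its sign there rested on control replicate 3. The same held for Hsp90b1, Hyou1, Calr, P4hb, Pdia3, Pdia4 and Pdia6, where Nsd2ΔIE replicate 1 was also above control replicate 1. Canx (357 against 362 and 533 CPM) and Ero1a (32.8 against 43.8 and 63.0 CPM) were below both controls.

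**Figure D3:**
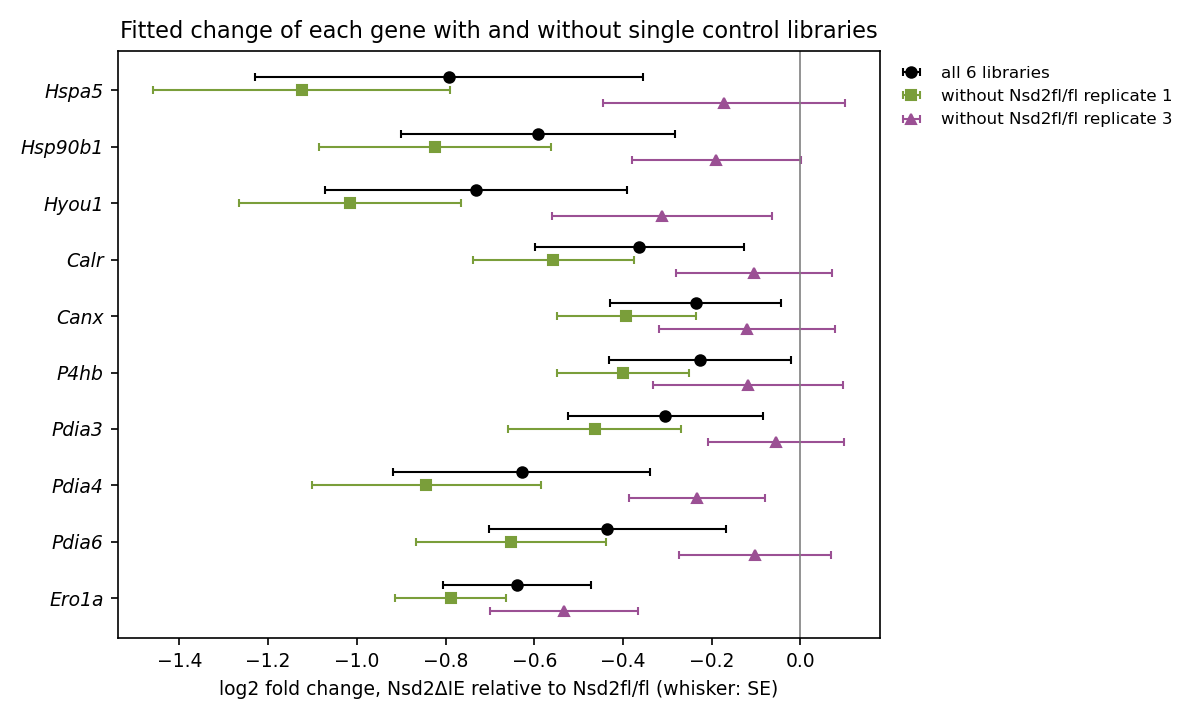
Fitted log2 fold change of each of the 10 genes in Nsd2ΔIE relative to Nsd2fl/fl (x axis, whiskers of 1 SE) from all 6 libraries (black) and without Nsd2fl/fl replicate 1 (green) or replicate 3 (purple). All points lie below 0; the purple points are nearest to it, and Ero1a moves least, from −0.64 to −0.79 and −0.53.

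Among 70 other ER folding genes, of which 69 were listed in the files and 66 tested, 32 were fitted below 0 and 34 above, with a median log2 fold change of 0.01. None passed an adjusted p of 0.05 in edgeR, 9 had an unadjusted p under 0.05, 2 were lower past the study's threshold (2.21% of all genes) and 6 were higher (8.05% of all genes). The 2 lower genes were P4ha1 and Creld2. P4ha1, the catalytic subunit that pairs with P4HB in collagen prolyl 4-hydroxylase, had 55.9, 75.6 and 64.6 CPM in the controls and 38.5, 41.5 and 41.2 CPM in Nsd2ΔIE, without overlap (log2 fold change −0.69, SE 0.133; unadjusted p 0.00132, adjusted p of edgeR 0.302). Creld2, an ER stress-responsive protein of the lumen, had 60.6, 94.1 and 165 CPM against 62.1, 48.5 and 60.9 CPM, with 2 of the Nsd2ΔIE libraries above the lowest control (−0.90, SE 0.346; adjusted p of edgeR, 0.419). Ero1b, the paralogue of Ero1a, was lower without overlap, at 15.3, 14.9 and 16.7 CPM against 12.5, 12.7 and 13.0 CPM, but its log2 fold change of −0.30 (SE 0.123; unadjusted p 0.0454) was under the study's fold.

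The 6 higher genes included Gpx8, a glutathione peroxidase of the ER, at 10.7, 9.41 and 9.74 CPM in the controls and 15.9, 17.4 and 19.0 CPM in Nsd2ΔIE (log2 fold change 0.81, SE 0.139). P3h4, a subunit of the collagen lysyl and prolyl hydroxylation complexes, had 5.97, 5.51 and 5.84 CPM against 9.56, 9.08 and 11.5 CPM (0.80, SE 0.164). The calcium-binding reticulocalbins Rcn1 (0.77, SE 0.184) and Rcn3 (0.72, SE 0.2) were higher as well, as were the low-level Cdnf, an ER-resident trophic factor (1.10, SE 0.43), and Clgn, a calnexin relative (1.252, SE 0.518), both under 2 CPM in every library. All 6 were higher without overlap (11.4% of all genes were), and their adjusted p in edgeR was between 0.302 and 0.441. With DESeq2, P4ha1, Gpx8, P3h4 and Rcn1 passed an adjusted p of 0.05 (0.00548, 0.000369, 0.0041 and 0.0236), as did 2.79% of all genes. Higher levels of these genes went with higher summed smooth muscle markers, 4991 to 10716 CPM in Nsd2ΔIE against 1387 to 4012 CPM in the controls with 8 of 8 markers fitted above 0, and with summed markers of enteric neurons and glia of 101 to 130 CPM against 46.8 to 77.1 CPM (8 of 8 above 0). Summed fibroblast markers were 1358 to 1576 CPM in Nsd2ΔIE and 1275 to 1552 CPM in the controls, with 4 of 7 above 0. The part of these cells in the result was not tested.

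High levels in Nsd2fl/fl replicate 3 were also found for co-chaperones and exchange factors of BiP. In that group the log2 ratio of the library to the other controls was highest for Sdf2l1 (1.26), which had 35.6, 66.0 and 116 CPM in the controls and 49.5, 37.8 and 46.6 CPM in Nsd2ΔIE; the median over its 13 genes was 0.352. The highest ratio among 7 prolyl isomerases was 1.19 for Fkbp11, among 8 collagen chaperones 1.09 for P4ha3, and among 7 thiol oxidation enzymes 0.902 for Prdx4, a peroxiredoxin that uses peroxide to drive disulfide formation. For the other disulfide isomerases it was 0.722 (Agr2, made by goblet cells), for glycoprotein quality control 0.609 (Clgn), and for calcium-binding and other lumen proteins 0.542 (Calu). Medians of those 6 groups were 0.0627 to 0.282. The ratios of P4ha3 and Clgn came with a low control replicate 2 and few counts. P4ha3 had 1.45, 0.282 and 1.46 CPM in the controls, and Clgn 0.571, 0.141 and 0.477 CPM. Control replicate 3 was the highest of the 6 libraries for neither gene, and for 0 of 8 collagen chaperones. Dnajc3 and Creld2, which share the ER stress element with 5 of the members, had ratios of 0.655 and 1.13, and Ero1b, which also has it, 0.143.

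**Figure D4:**
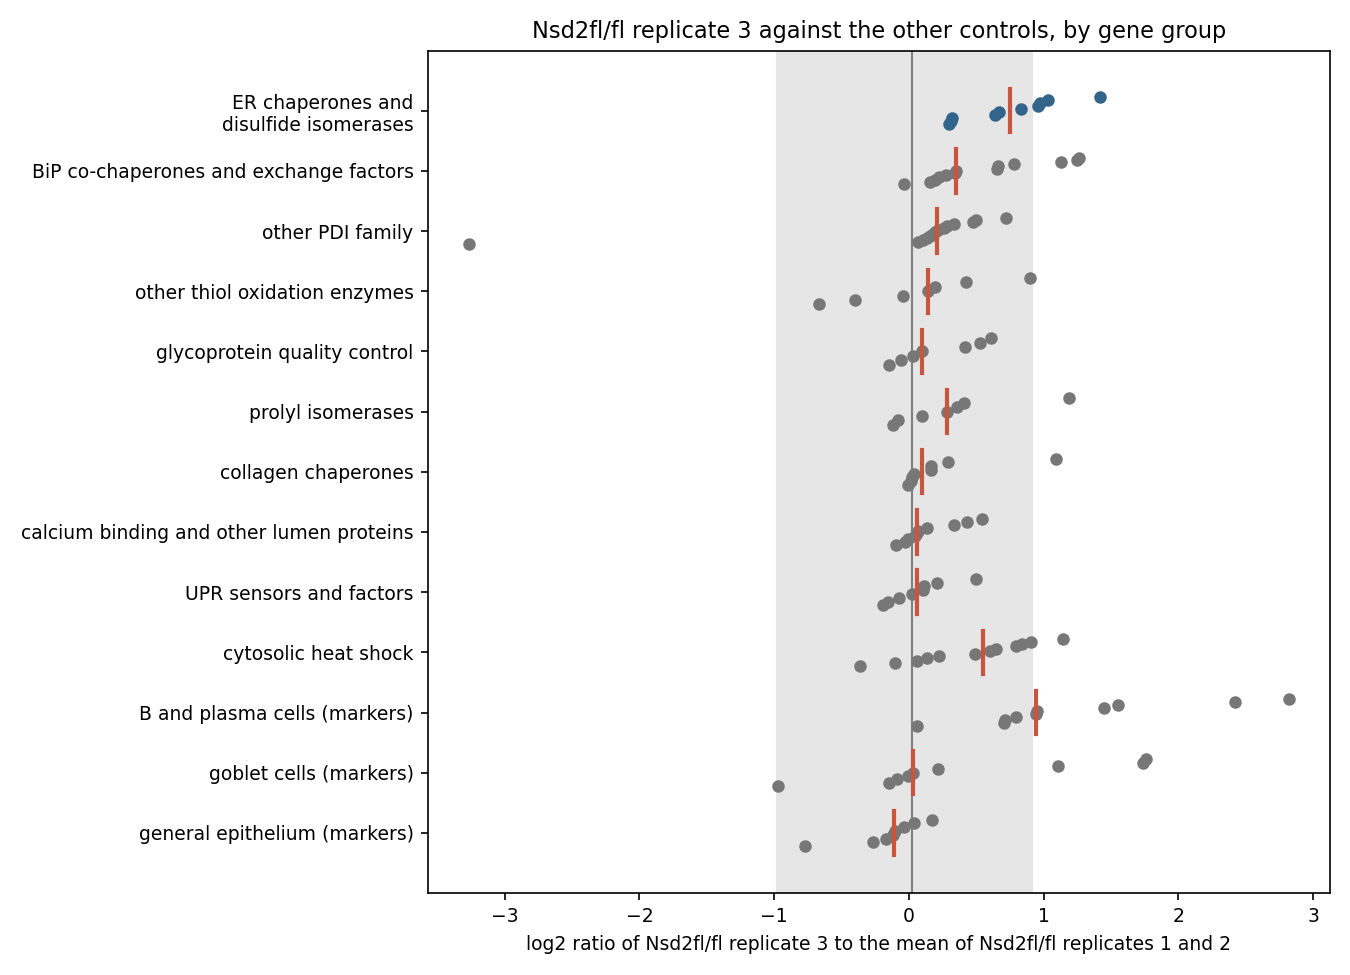
Log2 ratio of Nsd2fl/fl replicate 3 to the mean of Nsd2fl/fl replicates 1 and 2 (x axis), one point per gene, for the 10 members (blue) and other gene groups (grey); red lines mark group medians, and the band spans 9 in 10 of all genes tested, −0.98 to 0.91. All 10 members are above 0, with a median of 0.751. The B and plasma cell markers and the cytosolic heat shock list, which includes the mitochondrial Hspd1 and Hspe1, have medians of 0.946 and 0.547. Smooth muscle and adipocyte markers, not plotted, have medians of 0.799 and 2.30.

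Some other gene lists were high in the same library and some were not. The B and plasma cell markers, whose cells carry a large ER, summed to 1905, 1560 and 2704 CPM in the controls and to 1811, 1299 and 1374 CPM in Nsd2ΔIE, with 10 of 10 fitted below 0 and replicate 3 of the controls highest of the 6 libraries for 9. Jchain, the joining chain of secreted antibodies, had 1557, 1234 and 2276 CPM against 1427, 1015 and 1106 CPM. The list of cytosolic heat shock genes, which also holds the mitochondrial Hspd1 and Hspe1, summed to 5113, 7184 and 8556 CPM and to 5090.3, 5058 and 4671 CPM. Of its 12 genes, 11 were fitted below 0, and control replicate 3 was highest for 6, Hspd1 and Hspe1 among them. The log2 ratio of that library had a median of 0.547 over the list, but was −0.37 for Hspa1a, −0.10 for Dnajb1 and 0.06 for Hspa1b. Goblet cell markers summed to 37382, 26407 and 48102 CPM against 29725, 18021 and 23138 CPM (7 of 9 below 0). That sum was carried by Clca1 (16528, 4105 and 27449 CPM in the controls) and Fcgbp (8551, 2753 and 10458 CPM), whereas Muc2 had 6337, 16253 and 5173 CPM, and over the list the median log2 ratio of control replicate 3 was 0.03 and that library was highest for 3 of 9. By contrast, general epithelial markers summed to 9450.3, 15207 and 11373 CPM against 10317, 9449 and 8949 CPM (7 of 8 below 0) and colonocyte markers to 4663, 14317 and 4787 CPM against 6502, 11765 and 7289 CPM (5 of 8 below 0). Control replicate 3 was highest for 0 of 8 in both lists, with median log2 ratios of −0.11 and −0.20. The same ratio had a median of 0.799 for the smooth muscle markers and of 2.30 for the adipocyte markers, although that library was the highest of the 6 for none of either list. All listed markers of B and plasma cells, goblet cells, colonocytes and general epithelium passed the filter on low counts, none being at 0 throughout. Of the 7 adipocyte markers 6 passed, all but Lep. Summed adipocyte markers were at most 22.7 CPM in the controls and 28.7 to 83.6 CPM in Nsd2ΔIE, and of the pancreas acinar markers only Cela1 passed the filter. The part of B and plasma cells, goblet cells or a heat shock response in the members' values was not tested.

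Of 8 sensors and factors of the unfolded protein response, 1, Ern1 (IRE1α), was lower past the study's threshold, as were 2.21% of all genes. Its log2 fold change was −0.47 (SE 0.182), with a p of edgeR of 0.0372 unadjusted and 0.42 adjusted. Its groups overlapped, with 74.2, 55.3 and 60.8 CPM in the controls and 56.3, 38.4 and 42.6 CPM in Nsd2ΔIE. The other fitted log2 fold changes were −0.00098 for Atf6b (SE 0.107), which took either sign in the alternative analyses, −0.14 for Ern2, −0.09 for Atf6, −0.21 for Eif2ak3 (PERK), −0.27 for Xbp1, −0.12 for Atf4 and −0.18 for Ddit3, none with an unadjusted p under 0.05; those of Ern2, Atf6 and Atf4 also changed sign, in 1 to 3 of them. Eif2ak3 and Ddit3 were the 2 of the 8 that were lower without overlap (7.28% of all genes were). Xbp1, a transcription factor that raises ER chaperones, had 334, 388 and 508 CPM in the controls and 362, 329 and 329 CPM in Nsd2ΔIE. Its control replicate 3 was the highest of the 6 libraries, as for the members. That held for 2 of the 8 sensors and factors (23.9% of all genes), whose median log2 ratio of that library was 0.06.

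Each member's log2 CPM, centred on its mean over the 6 libraries, was averaged over the 10 to give a common pattern, and every other tested gene was ranked by its root mean square distance from it. The nearest gene was Dnajc3 (0.0629 on the log2 scale), a co-chaperone of BiP that also inhibits PERK, with 158, 197 and 278 CPM in the controls and 162, 152 and 161 CPM in Nsd2ΔIE. Septin11 (0.0735) came next, then Dnajb11 (0.0784), another BiP co-chaperone, with 126, 184 and 240.4 CPM against 151, 136 and 146 CPM. Pop1 (0.0827), Morf4l2 (0.0829), Noc4l (0.0854), BC055324 (0.0875) and Slc35b1 (0.0937), which carries ATP into the ER, completed the 8 nearest. Of the members, Calr (0.0662) and Pdia6 (0.0714) were closest to the pattern they contribute to, and Hspa5 (0.277), Canx (0.22), Ero1a (0.214), P4hb (0.209) and Hyou1 (0.195) the farthest. Hspa5 and Hyou1 swung more widely than the mean, while Canx and P4hb were nearly level between Nsd2fl/fl replicates 2 and 3. These distances describe 6 libraries and carry no test.

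**Figure D5:**
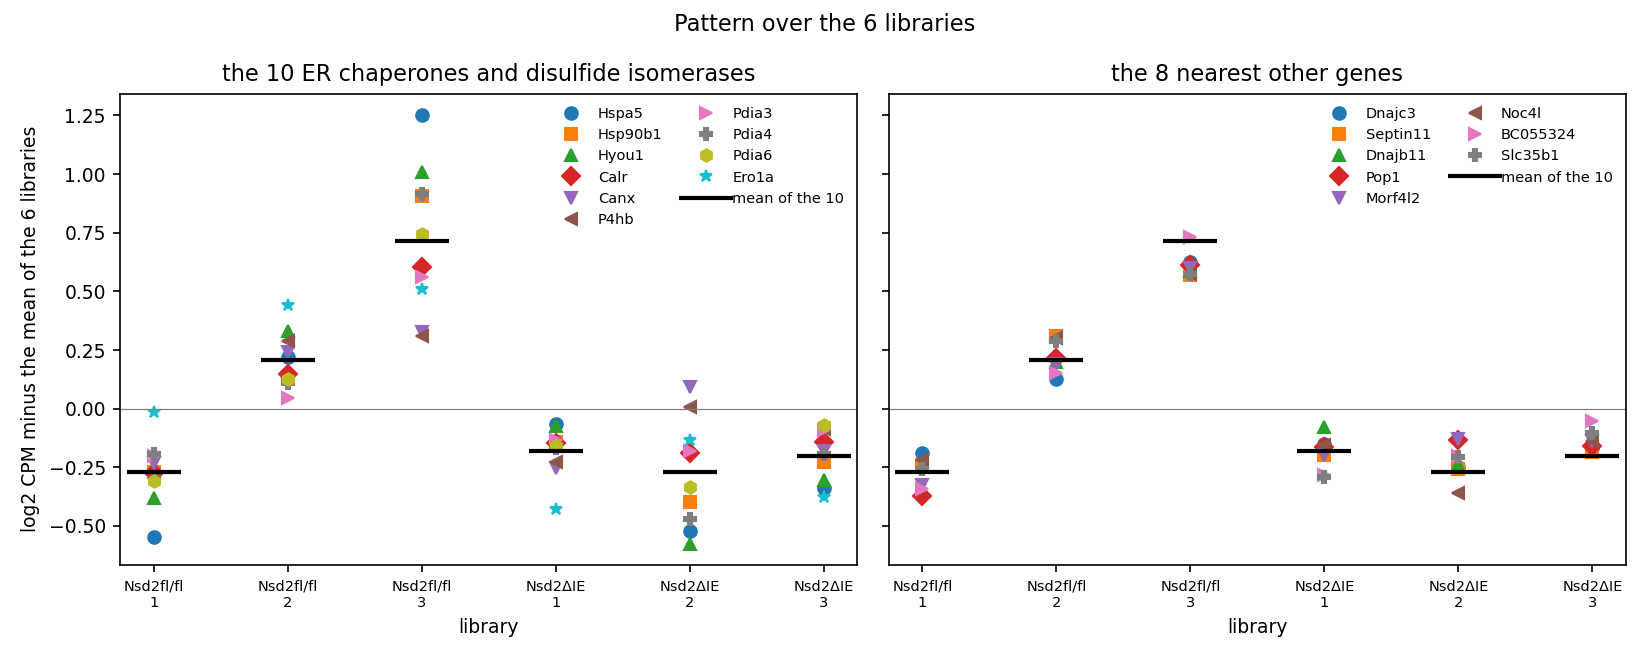
Log2 CPM of each gene minus its mean over the 6 libraries (y axis) by library (x axis), for the 10 members (left) and the 8 nearest other genes (right); black bars give the mean of the 10 members. The bars are highest in Nsd2fl/fl replicate 3, and the bar of Nsd2fl/fl replicate 1 lies level with the lowest of the 3 Nsd2ΔIE bars, just below it.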

How the data were processed

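Total RNA of colon was extracted with TRIzol. The authors deposited whole-number read counts per gene symbol and FPKM values (reads per length and library total) per gene symbol for each of the 6 libraries. The submitters' processing notes name fastp, HISAT2, HTSeq, R 3.2.0 and mm10. The annotation and the use of strand are not given in the sources used here. Gene lengths implied by the deposited counts and FPKM were whole numbers shared by all libraries, to within 0.0638 bases.

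The labels gave the groups and replicate numbers, and all 6 libraries were used. Counts were filtered (filterByExpr), scaled by TMM and fitted with edgeR 4.0.16 (quasi-likelihood test, two-sided, Benjamini-Hochberg adjustment over 16347 genes) in R 4.3.3. Each SE is the size of the fitted log2 value over the square root of its F statistic. Alternatives used RLE, upper-quartile or no factors, DESeq2 1.42.0, limma 3.58.1 (voom, and log2(FPKM + 1) or log2(FPKM + 0.1)), no filter, single libraries left out, the replicate number as a block, and the sets of the first principal component as a covariate. The fit was tested on simulated data, in which it missed many of the changes put in, most of all the smaller ones. Gene positions are from GENCODE M21 (GRCm38) and promoters from RefSeq (GRCm38.p6).

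The members and lists were chosen with earlier results of these data known. Of the other ER folding genes, those named were the 8 with the smallest unadjusted p under 0.05 and, in each group, the gene with the highest ratio in Nsd2fl/fl replicate 3. The 8 genes nearest in pattern were also named. Jchain, Cela1, Clca1, Fcgbp, Muc2 and Atf6b were named after their values were seen. Splicing, protein and liver data were not analysed here.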

Additional observations from a re-analysis of the deposited data

How the results depend on the processing

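Every member kept its direction in the 16 alternative analyses, and none passed an adjusted p of 0.05 in any. The count of members lower past the study's threshold (1) was 3 with DESeq2 (Hyou1, Pdia4 and Ero1a) and 3 with no filter. With single libraries left out it was 1 to 9, the 9 being without Nsd2fl/fl replicate 1, and at a fold over 1.5 it was 1. Over all genes tested, 361 of 16347 were lower past the threshold with all libraries, 432 of 16333 with DESeq2 and 607 of 24517 with no filter. With single libraries left out 146 to 747 were, the 747 being without Nsd2fl/fl replicate 1, and at a fold over 1.5 164 were. Members lower without overlap (1) numbered 1 to 10 with single libraries left out, and the median of the members (−0.51) was −0.72 to −0.15, the latter without Nsd2fl/fl replicate 3. Over all genes tested, 1190 were lower without overlap with all libraries, and 1495 to 2856 with single libraries left out. Other ER folding genes lower past the threshold (2) numbered 1 with library totals alone, limma-voom, log2(FPKM + 1) or log2(FPKM + 0.1). With single libraries left out they numbered 1 to 9, with 9 when control replicate 1 was out and 4 when control replicate 2 was out. Those higher (6) numbered 10 with log2(FPKM + 0.1). Over all genes tested, 142 were lower with library totals alone, 343 with limma-voom, 108 with log2(FPKM + 1) and 138 with log2(FPKM + 0.1). Without control replicate 2, 596 were lower. With log2(FPKM + 0.1), 1875 were higher, against 1316 in the edgeR fit of all libraries. The sign changed for Ern2 with the first principal component's sets as a covariate (0.0015), for Atf6 with library totals (0.0316), log2(FPKM + 1) (0.0307) and log2(FPKM + 0.1) (0.0337), and for Atf4 in the same 3 settings (0.0171, 0.0083 and 0.0083). The near-zero value of Atf6b was above 0 with RLE (0.00223) or upper-quartile factors (0.0686), library totals (0.13), DESeq2 (0.00233), limma-voom (0.00267), log2(FPKM + 1) (0.125), log2(FPKM + 0.1) (0.13), the replicate block (0.00284) and the covariate (0.00132), and ran from −0.0687 to 0.0769 with single libraries left out. The causes were not tested, beyond the fewer libraries in the fits that left one out. 

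Same-numbered libraries of the 2 groups had deviations from their group means that correlated at 0.501, 0.643 and −0.166, so the numbers were not taken to pair them. With the replicate block, 1 member (Ero1a) was lower past the threshold, the median of the members was −0.44, and 3 other folding genes were lower and 6 higher. Over all 16347 genes tested, 602 were lower and 1462 higher past the threshold in that fit.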

Other observations

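Set against its partners within each library, Ero1a separated the groups for 2 of the other 9 members, a comparison chosen after the values were seen and given without a test. Ero1a was by itself already lower without overlap, and the same share with all other genes as partners was not taken. Its count was 12.1, 11.9 and 11.8% of that of Canx in the Nsd2fl/fl libraries and 9.20, 8.87 and 9.05% in the Nsd2ΔIE libraries. Against P4hb, the isomerase family member it is known to oxidize, its count was 6.48, 5.95 and 6.14% in the controls and 4.65, 4.84 and 4.37% in Nsd2ΔIE. For both, the controls lay close together although they differed in the level of each gene. Against the other 7 members the groups overlapped, as for Hspa5, where the share was 7.69, 6.201 and 3.18% in the controls and 4.13, 6.95 and 5.16% in Nsd2ΔIE. These shares do not depend on the library totals or on scaling factors.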
